A study of Mus musculus with 4 samples.

Results

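The acyl-CoA thioesterases of the Acot family were examined in brown adipose tissue (BAT) of Sox4f/f mice and of littermates labelled Sox4-MKO. The members were chosen by name: Acot1, Acot2, Acot3, Acot4, Acot5, Acot7, Acot8, Acot9, Acot11 and Acot13, each found on 1 row, which makes 10 of the 55387 rows of every library. Of these, 8 had an averaged level above 1 FPKM in at least 1 genotype and were tested, as were 12877 genes in all. FPKM counts the fragments of a gene relative to its transcript length and to the depth of the library, so levels of different genes can be set side by side. All 8 passed this limit in both genotypes, and Acot3 and Acot5 passed it in neither.

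RNA was sequenced from BAT of 15-week-old male mice, with 2 Sox4f/f mice as controls and 2 littermates labelled Sox4-MKO, each with 1 library. Sox4f/f mice carry Sox4 alleles flanked by loxP sites, and the labels give their genotype as WT. In Sox4-MKO mice, as the study describes them, the same alleles are recombined by a Cre recombinase driven by Myf5, which is active in the lineage of brown adipocytes and skeletal muscle and spares cells of other origin. The sequencing was carried out to ask how loss of SOX4 alters the gene program of BAT. Whole BAT was sequenced, although the labels name brown adipocytes, so fewer cells of a type and less RNA per cell cannot be told apart.

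Acyl-CoA thioesterases split an activated fatty acid into free fatty acid and coenzyme A, the reverse of the step catalysed by acyl-CoA synthetases. They thereby set how much acyl-CoA and free coenzyme A is present in the cytosol, the mitochondrion and the peroxisome. Type I enzymes (Acot1 to Acot6 in the mouse) share an alpha/beta-hydrolase fold and arose by gene duplication, whereas type II enzymes share a hotdog fold. In BAT, fatty acids are both the fuel of heat production and the activators of UCP1, and Acot11 was first described as a brown fat gene induced by cold.

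The type I genes lay side by side on the plus strand of chromosome 12 in GRCm38, between 83987861 and 84111349, by a match of their symbols to GENCODE M21. Acot2 came first at chr12:83987861-83993873, followed by Acot1 at chr12:84009490-84018371, Acot4 at chr12:84038379-84048601, Acot3 at chr12:84052144-84060402 and Acot5 at chr12:84069325-84076020. Acot6, which is not a member, closed the cluster at chr12:84100654-84111349. Peroxisomal matrix enzymes are recognised by a short targeting signal at the very end of the protein, so the ends of the coding sequences show where these near copies part. The last 30 coding bases are given 5′ to 3′ on the sense strand from the GENCODE M21 transcripts, with the last 3 codons before the stop codon in capitals, and with Acot8, the type II enzyme of the peroxisome, for comparison.
Acot2: ttccacaaacagttgggtAGCAAGAGTtag
Acot1: gagtgtttgcatgtgtctCCTAAAATAtaa
Acot4: acccacagcagagcctccTGTAGACTGtag
Acot3: aaaaagaagacaatcccaGCAAAACTGtga
Acot5: gacaagaggccaagcccaGCAAAACTAtga
Acot6: gaaaagcctgccaggcacAGCAAACTGtaa
Acot8: aagcctcaggtgtcagagAGTAAGCTAtag
The peroxisomal enzymes Acot3, Acot4, Acot5, Acot6 and Acot8 ended on the codon CTG or CTA, whereas cytosolic Acot1 ended on ATA and mitochondrial Acot2 on AGT.

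Acot1 and Acot2 differed most at the other end. Their coding sequences were 95.2% identical over 1239 aligned bases, and Acot2 began with 123 coding bases that have no counterpart in Acot1. Proteins bound for the mitochondrial matrix usually carry their targeting signal at the start, so this stretch is shown, with the start of the aligned part in capitals and the start of Acot1 below it.
Acot2: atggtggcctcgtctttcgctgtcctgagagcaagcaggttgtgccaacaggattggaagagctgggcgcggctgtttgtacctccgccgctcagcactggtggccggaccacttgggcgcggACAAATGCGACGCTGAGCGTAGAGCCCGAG
Acot1: ATGGAGGCGACGCTGAACCTTGAGCCCTCG
The longest stretch without a difference ran over 273 coding bases, from position 887 to 1159 of Acot1 and from 1010 to 1282 of Acot2. It is given once, since fragments that fall wholly inside it cannot be told apart.
Acot1 and Acot2: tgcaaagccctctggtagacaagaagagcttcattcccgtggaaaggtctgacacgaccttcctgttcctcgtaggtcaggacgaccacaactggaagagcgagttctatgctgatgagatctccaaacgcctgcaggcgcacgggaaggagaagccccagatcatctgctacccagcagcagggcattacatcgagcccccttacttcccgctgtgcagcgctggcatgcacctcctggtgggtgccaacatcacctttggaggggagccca
Among all windows of 100 bases, 21.9% of those of Acot1 and 17.1% of those of Acot2 recurred in another gene. This share was 14.3% for Acot3, 8.32% for Acot5, 0.36% for Acot4 and 0.968% for Acot9, whose copy Acot10 was 97.2% identical in its coding sequence. It was 0% for Acot7, Acot8, Acot11 and Acot13. How the authors divided shared fragments was not given in the sources used here, so the levels of the type I genes are uncertain. The share of windows does not bound this where a near copy is far more abundant. Acot2 had an estimated 870 and 813 fragments in the controls and 592 and 913 in mice labelled Sox4-MKO. Acot1 had 87 and 48 against 36 and 64, so a small part of Acot2 assigned wrongly could change Acot1 greatly.

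Acot13 was the most abundant member in each of the 4 libraries. Its mean over the libraries was 139 FPKM, followed by Acot9 with 30 FPKM, Acot11 with 27.2 FPKM and Acot2 with 26.6 FPKM. Acot7 with 12.0 FPKM and Acot8 with 10.4 FPKM came next, and Acot4 with 3.37 FPKM and Acot1 with 1.89 FPKM were low. In this order the ranges over the libraries overlapped between Acot9 and Acot11, Acot11 and Acot2, Acot4 and Acot1, and Acot5 and Acot3, so these neighbours are not told apart by their spread. The ranges of Acot7 and Acot8 overlapped as well, but Acot7 was the higher in each of the 4 libraries. The peroxisomal type I genes Acot3 and Acot5 were close to the lowest level that the depth can show. Acot3 was listed at 0.133 and 0 FPKM in the controls versus 0.039 and 0.0591 FPKM in mice labelled Sox4-MKO, which corresponds to about 6, 0, 2 and 3 fragments. Acot5 was listed at 0.053 and 0 FPKM in the controls versus 0.278 and 0.0392 FPKM in mice labelled Sox4-MKO, or about 1, 0, 5 and 1 fragments. No fold is given for either.

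**Figure D1:**
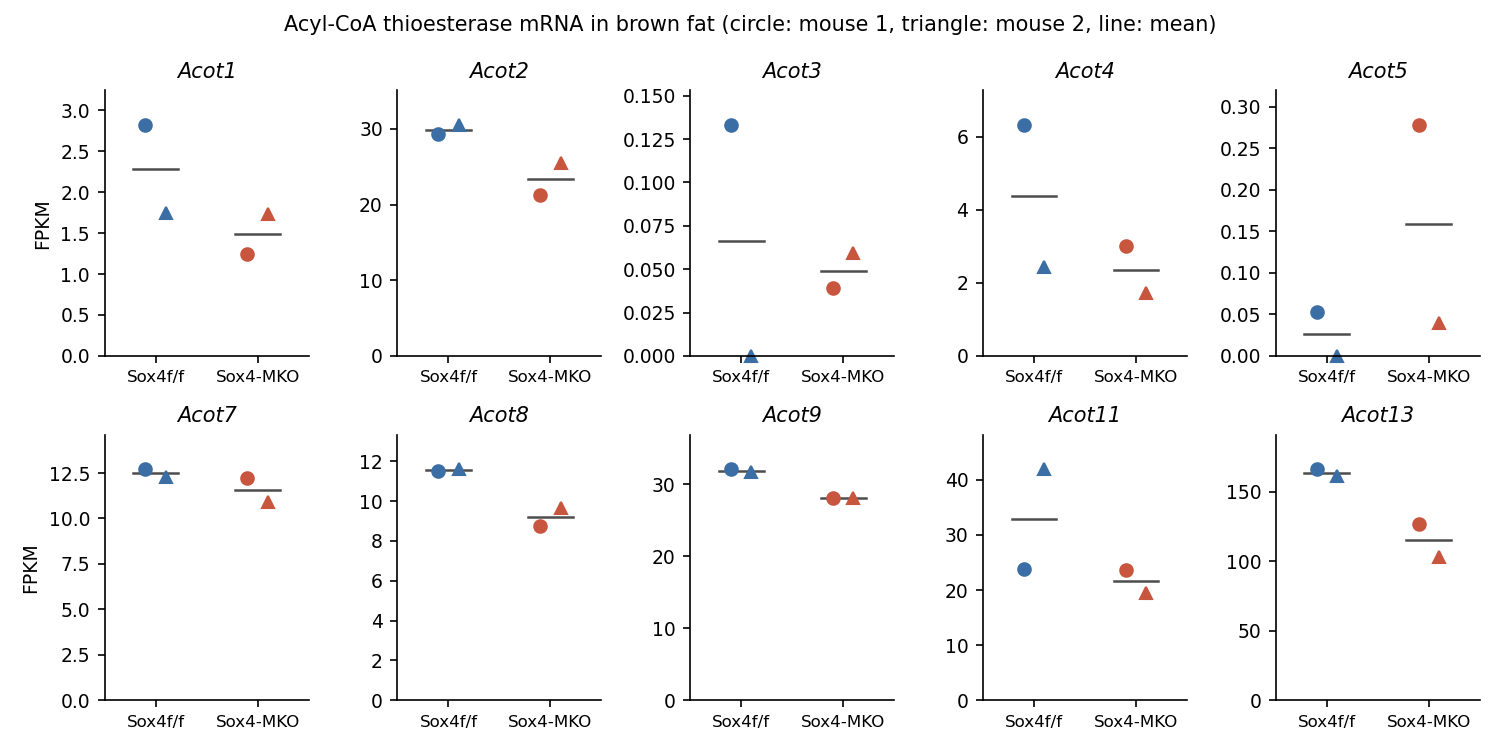
Level in FPKM (y axis, from 0, with its own scale in each panel) of the 10 members in the 2 Sox4f/f libraries (blue) and the 2 libraries labelled Sox4-MKO (red); circles are mouse 1, triangles mouse 2 and lines the mean of a genotype. The groups lie apart for Acot1, Acot2, Acot7, Acot8, Acot9, Acot11 and Acot13 and overlap for Acot4, and Acot3 and Acot5 do not reach 1 FPKM.

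The comparison of the genotypes gave a lower mean in the libraries labelled Sox4-MKO for all 8 tested members, by between 7.41% for Acot7 and 46.0% for Acot4. For 7 of them both of these libraries were below both Sox4f/f libraries, the exception being Acot4. No member was higher without overlap. Among all tested genes, 29.6% were lower and 21.7% higher without overlap, and 56.0% had a log2 fold change below 0. The median log2 fold change of the 8 members was -0.37, and that of all tested genes was -0.05. Without Sox4f/f mouse 1 or without Sox4-MKO mouse 1 the members' median was -0.24. By limma on log2(FPKM + 1), only Acot13 had an unadjusted p under 0.05, which 8.28% of all tested genes had in the lower direction and 7.95% in the higher. No member passed an adjusted p of 0.05 (Benjamini-Hochberg), and neither did any other gene (0.0% of 12877). The smallest adjusted p among all genes was 0.191. With 2 mice per genotype an exact permutation test cannot give a p below 0.333, so single differences rest on the spread that limma shares across genes.

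Acot13, Acot2, Acot9 and Acot11 were the 4 most abundant members. Acot13, a small hotdog enzyme that acts on long-chain acyl-CoA and binds phosphatidylcholine transfer protein, lies at chr13:24817948-24831540 on the minus strand. It measured 166 and 161 FPKM in the controls versus 127 and 103 FPKM in mice labelled Sox4-MKO, or 163 ± 3.41 and 115 ± 16.9 FPKM (SD, n = 2 mice each). Both low values lay well apart from the controls, with a gap of 33.7 FPKM, or 21% of the lower control. The log2 fold change of Acot13 was -0.51 (SE 0.14, 95% interval -0.89 to -0.13), with an unadjusted p of 0.0191 and an adjusted p of 0.240 by limma. Its own spread alone, without the spread shared across genes, gave an unadjusted p of 0.0781. Leaving out Sox4f/f mouse 1 gave Acot13 a log2 fold change of -0.49 (unadjusted limma p 0.103), and leaving out Sox4f/f mouse 2 gave -0.53 (unadjusted limma p 0.0865). With a library left out, its group holds 1 library and is assumed to vary like the other group, here and in all such values.

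Acot2, the long-chain thioesterase of the mitochondrial matrix, measured 29.3 and 30.5 FPKM in the controls versus 21.2 and 25.5 FPKM in mice labelled Sox4-MKO. The groups did not overlap, with a gap of 3.81 FPKM between their nearest libraries. Its log2 fold change was -0.35 (SE 0.14, 95% interval -0.73 to 0.03, adjusted limma p 0.329). For Acot2 it became -0.22 with Sox4-MKO mouse 1 left out (unadjusted limma p 0.178) and -0.48 with mouse 2 of that genotype left out (unadjusted limma p 0.0327).

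Acot9, a mitochondrial enzyme for acyl-CoA of short and long chains, lies at chrX:155262443-155297654 on the plus strand. It measured 32.1 and 31.7 FPKM in the controls versus 28.1 FPKM in each of the mice labelled Sox4-MKO. Mice of a genotype lay close together, and the groups were 3.6 FPKM apart. Acot9 had a log2 fold change of -0.18 (SE 0.11, 95% interval -0.48 to 0.12, adjusted limma p 0.487). The unadjusted p of Acot9 was 0.186 by limma and 0.00182 by its own spread alone. The smaller p rests on 2 mice per genotype that lay close together. By their own spread alone, 7.26% of all tested genes were lower at an unadjusted p under 0.05.

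Acot11, the brown fat inducible thioesterase, pairs hotdog domains with a lipid-binding START domain and lies at chr4:106744555-106804998 on the minus strand. It measured 23.9 and 41.9 FPKM in the controls versus 23.6 and 19.5 FPKM in mice labelled Sox4-MKO. Sox4f/f mouse 2 stood alone, and mouse 1 was only 0.322 FPKM above the nearest library of the other genotype. The log2 fold change of Acot11 was -0.54 (SE 0.30, 95% interval -1.32 to 0.24, adjusted limma p 0.427). It was -0.93 without Sox4f/f mouse 1, with an unadjusted limma p of 0.02 that rests on the spread of the other genotype, and -0.15 without Sox4f/f mouse 2, so its size rested on these mice.

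Of the cytosolic members, Acot7, which hydrolyses long-chain acyl-CoA including arachidonoyl-CoA and is best known from brain, differed least. It lies at chr4:152178134-152271855 on the plus strand and measured 12.7 and 12.3 FPKM in the controls versus 12.2 and 10.9 FPKM in mice labelled Sox4-MKO. The groups were separated by 0.131 FPKM. Its log2 fold change was -0.10 (SE 0.14, adjusted limma p 0.726), with a 95% interval of -0.47 to 0.26 that does not show equal levels. This became -0.17 with Sox4-MKO mouse 1 left out, -0.03 with mouse 2 of that genotype left out and -0.04 at a common sum without mitochondrially encoded genes and Ucp1.

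Acot1, the cytosolic near copy of Acot2 and a known target of PPARalpha in liver and heart, measured 2.82 and 1.75 FPKM in the controls versus 1.24 and 1.74 FPKM in mice labelled Sox4-MKO. Its estimated 87, 48, 36 and 64 fragments made it one of the less precisely measured members. Sox4f/f mouse 2 and Sox4-MKO mouse 2 were 0.0135 FPKM apart. The log2 fold change of Acot1 was -0.39 (SE 0.27, 95% interval -1.10 to 0.32, adjusted limma p 0.508), and it was -0.15 without Sox4f/f mouse 1, -0.62 without Sox4f/f mouse 2 and -0.24 without Sox4-MKO mouse 1.

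The level of Acot1 relative to Acot2 in the same library does not depend on how the libraries were scaled. It does depend on how fragments shared by these genes were divided. Acot1 stood at 9.64% and 5.74% of Acot2 in Sox4f/f and at 5.87% and 6.82% in the libraries labelled Sox4-MKO. The log2 ratio differed by -0.23 between the genotypes (exact permutation test, two-sided, p = 1.0, n = 2 mice each). Without Sox4f/f mouse 1 the difference was 0.14, so no direction can be given.

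**Figure D2:**
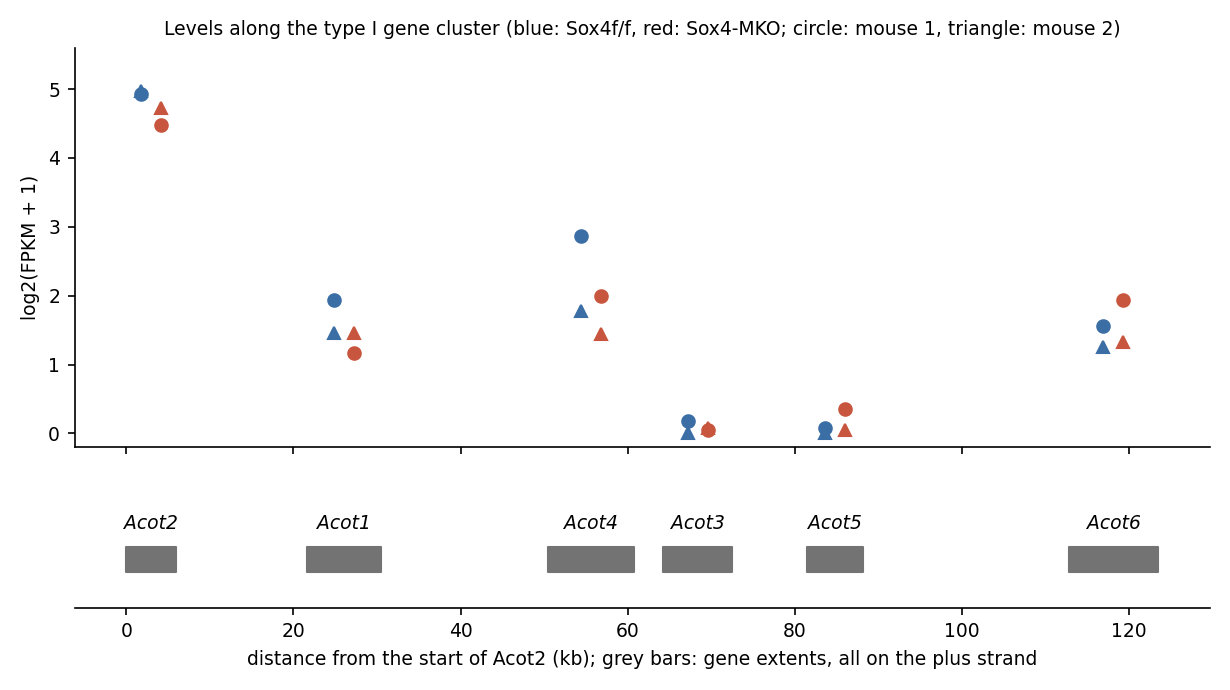
Level as log2(FPKM + 1) (y axis, upper panel) of the 6 genes of the type I cluster at their distance in kilobases from the start of Acot2 (x axis), with gene extents as grey bars below; blue is Sox4f/f, red is Sox4-MKO, circles are mouse 1 and triangles mouse 2. Acot2, the first gene, stands far above its neighbours, Acot3 and Acot5 are near 0, and Acot6 does not show the lower Sox4-MKO levels of Acot2.

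In the peroxisome, Acot8 acts on a wide range of acyl-CoA, including intermediates of bile acid synthesis, and lies at chr2:164792765-164804882 on the minus strand. It measured 11.5 and 11.6 FPKM in the controls versus 8.76 and 9.67 FPKM in mice labelled Sox4-MKO. The groups were 1.83 FPKM apart, or 15.9% of the lower control. The log2 fold change of Acot8 was -0.30 (SE 0.14, 95% interval -0.66 to 0.07, adjusted limma p 0.368). Its unadjusted p was 0.0884 by limma and 0.0442 by its own spread alone. Snx21 overlaps Acot8 on the opposite strand and measured 29.5 and 20.0 FPKM in the controls versus 20.7 and 18.1 FPKM in mice labelled Sox4-MKO. Whether the counting used strand was not given in the sources used here, so fragments of Snx21 within Acot8 cannot be told apart from it.

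Acot4, a peroxisomal enzyme that prefers succinyl-CoA in the mouse, measured 6.32 and 2.43 FPKM in the controls versus 3 and 1.72 FPKM in mice labelled Sox4-MKO. Sox4f/f mouse 1 was high, and Sox4f/f mouse 2 lay between the libraries of the other genotype. Acot4 had a log2 fold change of -0.60 (SE 0.44, 95% interval -1.76 to 0.56, adjusted limma p 0.525). It was -0.06 without Sox4f/f mouse 1 and -1.15 without Sox4f/f mouse 2. With Sox4-MKO mouse 1 left out it became -0.88, and with mouse 2 of that genotype left out -0.32, so the size of the largest estimate in the family moved with whichever library was left out.

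**Figure D3:**
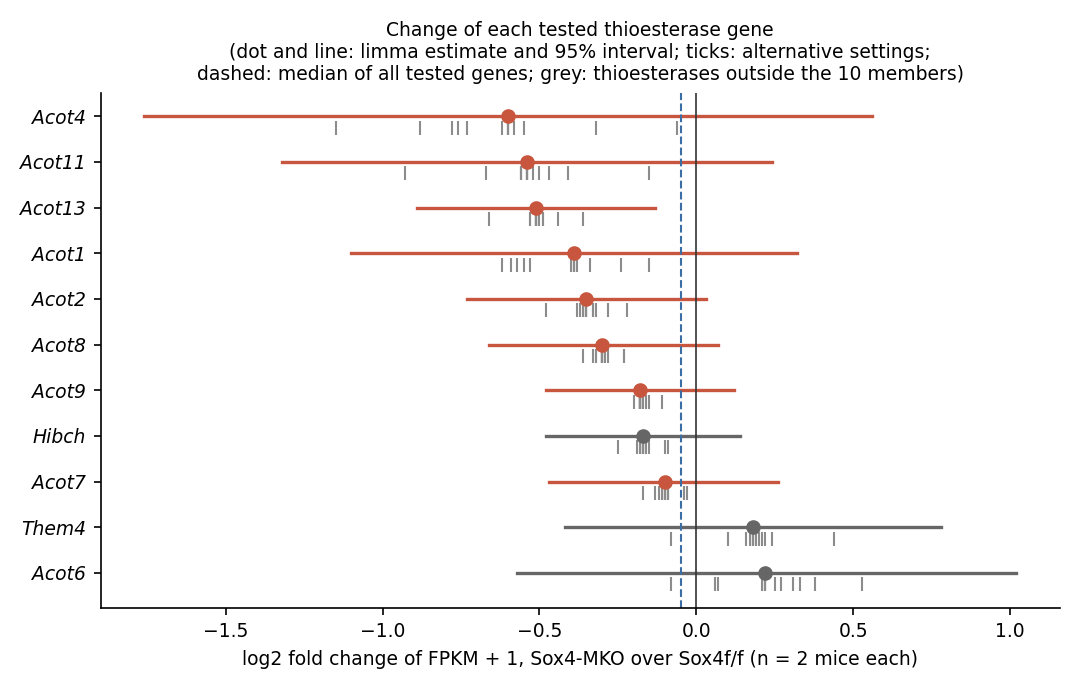
Log2 fold change of FPKM + 1, Sox4-MKO over Sox4f/f (x axis), for the 8 tested members (red) and 3 further thioesterases (grey), with 95% limma intervals as lines, the values under each alternative setting as ticks, and the median of all tested genes, -0.05, as a dashed line. All 8 members lie below 0, and only the interval of Acot13 leaves out 0.

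Summed over the 10 members, the family stood at 284.3 and 292.9 FPKM in the controls versus 225.4 and 200.3 FPKM in mice labelled Sox4-MKO. The ratio of the means was 0.738. It was 0.748 for the 5 type I and 0.736 for the 5 type II members, so neither sum stood out. Each class sum was mostly 1 gene. In the controls Acot2 made up 29.9 of 36.6 FPKM of type I and Acot13 163 of 252 FPKM of type II. Acot13 alone gave 58.2% and 54.9% of the sum over the 10 members in Sox4f/f and 56.3% and 51.4% in the other genotype. Without Acot13 the sums were 118.8 and 132.2 FPKM against 98.4 and 97.3 FPKM, a ratio of 0.78.

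**Figure D4:**
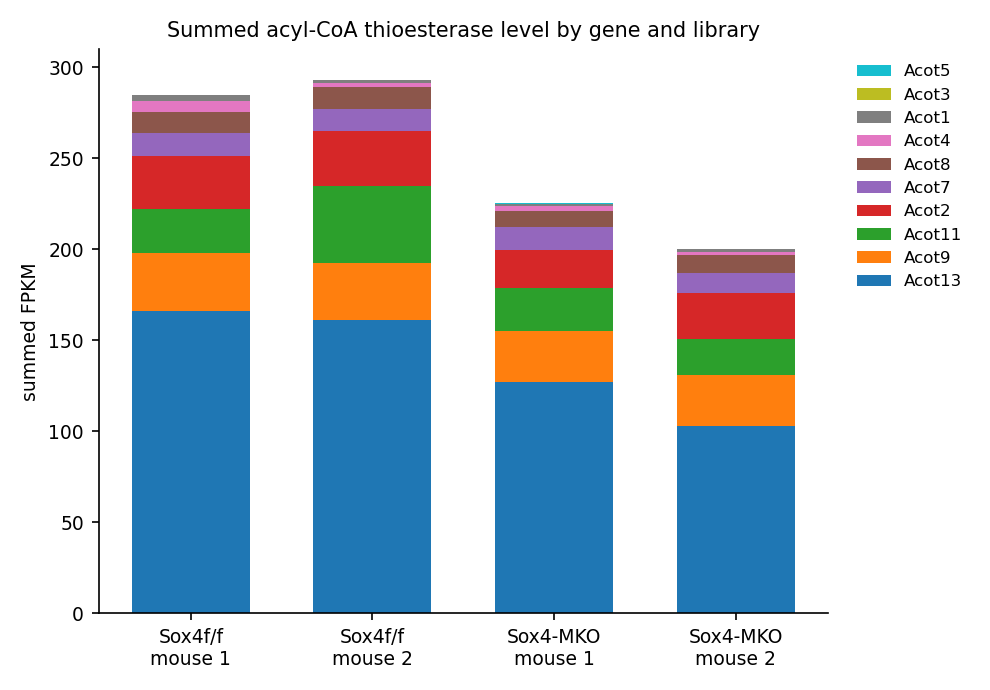
Summed FPKM (y axis, from 0) of the 10 members in each of the 4 libraries, stacked by gene. Acot13 fills over 50% of every bar, and both Sox4-MKO bars end below both Sox4f/f bars.

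The labels and the makeup of the tissue bear on these values. Sox4, at chr13:28948919-28953713 on the minus strand, measured 1.98 and 1.06 FPKM in the controls versus 0.981 and 3.06 FPKM in mice labelled Sox4-MKO, with a log2 fold change of 0.20 (SE 0.43, adjusted limma p 0.843). Its level therefore did not bear out the labels, and its log2 fold change was -0.07 without Sox4f/f mouse 2 and -0.32 without Sox4-MKO mouse 2. Ucp1, the uncoupling protein of brown adipocytes, measured 1935 and 1814 FPKM in the controls versus 733 and 1105 FPKM in mice labelled Sox4-MKO. The 13 brown adipocyte markers summed to 8497 and 8271 FPKM in the controls and to 4344 and 5003 FPKM in mice labelled Sox4-MKO, with 9 of 13 lower and 1 higher without overlap. The 10 skeletal muscle markers summed to 192 and 714 FPKM in the controls and to 13811 and 2506 FPKM in mice labelled Sox4-MKO, with 9 of 10 higher without overlap, and Sox4-MKO mouse 1 stood apart. The 9 macrophage markers (220 and 322 against 452 and 445 FPKM) and the 7 fibroblast markers (408 and 445 against 922 and 841 FPKM) were all higher without overlap. The 7 white adipocyte markers summed to 213 and 167 against 513 and 604 FPKM. Of the 5 that were tested, 3 were higher without overlap, and Tcf21 was at 0 in all libraries. T cell markers summed to 7.71 and 6.45 against 8.94 and 13.6 FPKM, the sums of endothelial markers (107 to 168 FPKM) and Schwann cell markers (61.4 to 89.2 FPKM) overlapped, and B cell and hepatocyte markers stayed at or below 2.39 FPKM in sum. The part of these cells in the thioesterase values was not tested. Without Sox4-MKO mouse 1, the library with the highest muscle sum, the members' median log2 fold change was -0.24 and that of all tested genes -0.09. All 8 tested members were then lower without overlap, as were 47.4% of all tested genes, since a single library remained in that group.

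Sums of the markers shared by all adipocytes overlapped between the genotypes, at 12657 and 12746 FPKM in the controls versus 11072 and 14215 FPKM in mice labelled Sox4-MKO. Of the 9 markers, 4 were lower and 0 higher without overlap, against 29.6% and 21.7% of all tested genes. Per 1000 FPKM of these 9 markers, the family stood at 22.5 and 23.0 FPKM in the controls versus 20.4 and 14.1 FPKM in mice labelled Sox4-MKO. On this scale Acot13 stood at 13.1 and 12.6 against 11.5 and 7.25, and Acot1, Acot2 and Acot8 were also lower without overlap. Acot4, Acot7, Acot9 and Acot11 overlapped. No member had an unadjusted limma p under 0.05 after this rescaling, which was added after the data were seen. Among all genes then tested, 282 (2.18%) were lower and 828 higher by that limit, with 19 adjusted calls. Acot13 then had a log2 fold change of -0.49 (unadjusted limma p 0.136) and the members' median -0.36.

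The family's remaining relatives did not share the lower levels throughout. Of the 8 other acyl-CoA thioesterases, 3 were tested and none had an unadjusted limma p under 0.05 in either direction. Acot6, the last gene of the cluster, measured 1.96 and 1.38 FPKM in the controls versus 2.84 and 1.51 FPKM in mice labelled Sox4-MKO (log2 fold change 0.22, SE 0.30, adjusted limma p 0.732). Them4, a mitochondrial hotdog thioesterase, measured 3.96 and 6.08 against 5.65 and 5.77 FPKM (log2 fold change 0.18, SE 0.23, adjusted limma p 0.716). Both overlapped between the genotypes. Hibch, which splits an acyl-CoA formed in valine breakdown, measured 136 and 138 against 116 and 129 FPKM, lower without overlap (log2 fold change -0.17, SE 0.12, adjusted limma p 0.506). Acot10, Acot12, Them5 and Baat stayed at or below 0.316 FPKM, and Olah was at 0 in all libraries.

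**Figure D5:**
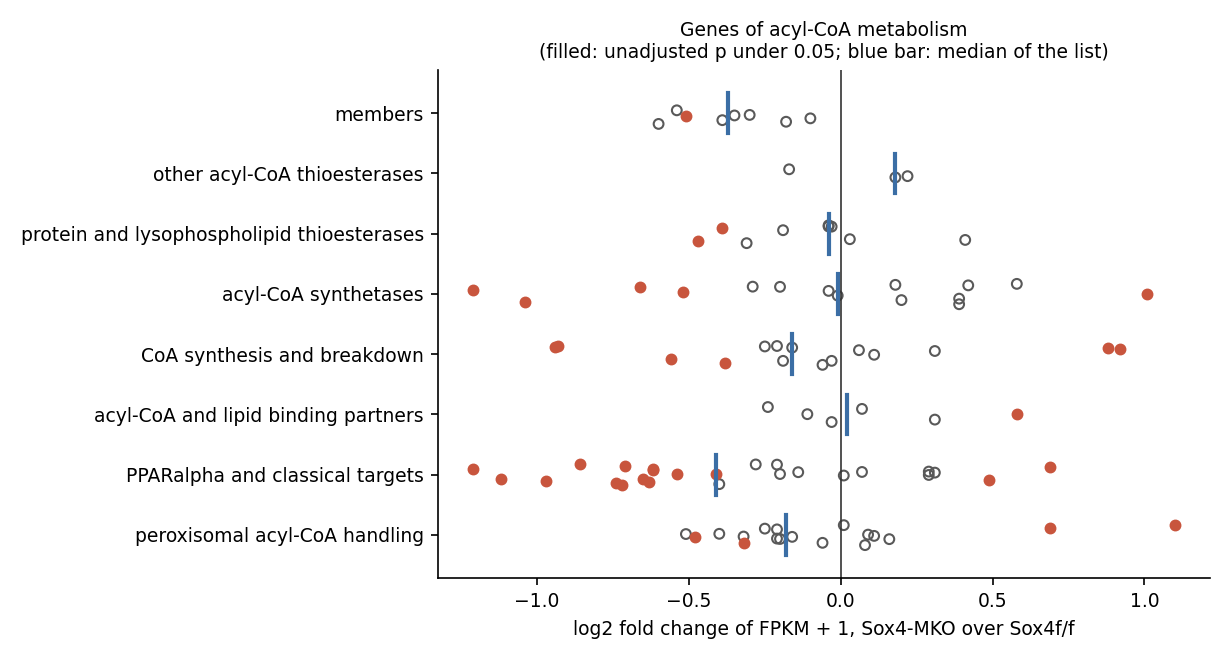
Log2 fold change of FPKM + 1, Sox4-MKO over Sox4f/f (x axis), for the tested genes of 8 lists (rows); filled points had an unadjusted limma p under 0.05 and blue bars mark the median of a list. The PPARalpha list lies furthest to the left, with a median of -0.41, and the acyl-CoA synthetases spread to both sides around -0.01.

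Acyl-CoA synthetases, which form what the thioesterases split, lay on both sides: 4 of 15 tested genes were lower and 1 higher at an unadjusted limma p under 0.05 (8.28% and 7.95% of all tested genes), and the median log2 fold change was -0.01. The balance depended on the scaling, with 3 lower and 3 higher under quantile normalization, 3 lower and 4 higher at a common sum without mitochondrially encoded genes and Ucp1, and 1 lower and 0 higher without moderation. Slc27a2, a very-long-chain synthetase, measured 125 and 52.4 FPKM in the controls versus 37.1 and 32.0 FPKM in mice labelled Sox4-MKO (log2 fold change -1.21, SE 0.43, adjusted limma p 0.286). Mitochondrial acetyl-CoA synthetase Acss1 measured 85.4 and 67.9 against 35.0 and 38.1 FPKM (-1.04, SE 0.16, adjusted limma p 0.196). Its cytosolic counterpart Acss2, which feeds lipid synthesis, measured 80.8 and 126 against 235 and 178 FPKM (1.01, SE 0.27, adjusted limma p 0.229), so the mitochondrial and cytosolic forms lay on opposite sides. With a library left out fewer synthetases were lower by that limit. Fewer of all tested genes were lower as well, but only slightly fewer without Sox4-MKO mouse 1. Without Sox4-MKO mouse 2 more of all tested genes were higher. Whether smaller counts with a library left out, here and in the lists below, show dependence on a mouse was not tested.

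Coenzyme A, the other product of the reaction, is made and broken down by enzymes of which 4 of 15 were lower and 2 higher at an unadjusted limma p under 0.05 (8.28% and 7.95% of all tested genes). The median of this list was -0.16. Pank1, a pantothenate kinase and thus an enzyme of the first step of synthesis, measured 145 and 112 FPKM in the controls versus 68.2 and 63.4 FPKM in mice labelled Sox4-MKO (log2 fold change -0.94, SE 0.16, adjusted limma p 0.196). Pank3, another pantothenate kinase, named here after its values were seen, lay on the other side with a log2 fold change of 0.88 (unadjusted limma p 0.00632). Slc25a42, which carries coenzyme A into mitochondria, measured 217 and 189 against 106 and 106 FPKM (-0.93, SE 0.12, adjusted limma p 0.191). Vnn3, a pantetheinase, measured 2.47 and 2.31 against 4.56 and 6.39 FPKM (0.92, SE 0.22, adjusted limma p 0.214). Without Sox4f/f mouse 1 these counts were 2 lower and 1 higher, without Sox4f/f mouse 2 they were 3 and 1, and without Sox4-MKO mouse 2 they were 2 and 2.

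PPARalpha controls several Acot genes in liver, and of its list 13 of 25 tested genes were lower and 2 higher at an unadjusted limma p under 0.05 (8.28% and 7.95% of all tested genes), with a median of -0.41. Of the 13 brown adipocyte markers 8 were lower and 1 higher by the same limit. Ppara itself measured 115 and 130 FPKM in the controls versus 57.7 and 66.4 FPKM in mice labelled Sox4-MKO (log2 fold change -0.97, SE 0.14, adjusted limma p 0.196). Its coactivators Ppargc1a (48.2 and 22.4 against 13.2 and 14.2 FPKM, -1.21, SE 0.37, adjusted limma p 0.254) and Ppargc1b (36.0 and 36.3 against 14.7 and 17.6 FPKM, -1.12, SE 0.14, adjusted limma p 0.191) were also lower without overlap. Ppara is also 1 of the brown adipocyte markers. Without Sox4f/f mouse 1 the PPARalpha list held 8 lower genes and 1 higher, and without Sox4f/f mouse 2 it held 8 lower. Under the other scalings and without moderation it held between 9 and 14 lower.

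Of the peroxisomal acyl-CoA genes, 2 of 18 were lower and 2 higher at an unadjusted limma p under 0.05, with a median of -0.18. These counts were near the shares among all tested genes, 8.28% and 7.95%, and the lower count was 0 under quantile normalization and at the common sum without mitochondrially encoded genes and Ucp1. Abcd2, which brings very-long-chain acyl-CoA into the peroxisome, measured 30.7 and 26.2 FPKM in the controls versus 64.3 and 59.7 FPKM in mice labelled Sox4-MKO (log2 fold change 1.10, SE 0.14, adjusted limma p 0.191). The peroxisomal thiolase Acaa1b, also in the PPARalpha list, measured 13.3 and 12.9 against 20.7 and 22.7 FPKM (0.69, SE 0.13, adjusted limma p 0.196). Slc25a17, a peroxisomal carrier of coenzyme A and other cofactors, measured 60.2 and 55.3 against 35.8 and 46.9 FPKM (-0.48, SE 0.17, adjusted limma p 0.285). Without Sox4f/f mouse 1 or Sox4-MKO mouse 1, 0 genes of this list were lower at an unadjusted limma p under 0.05, and without Sox4f/f mouse 2 the number was 1.

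Thioesterases that act on protein or lysophospholipid were lower at an unadjusted limma p under 0.05 for 2 of 9 genes and higher for 0, with a median of -0.04. Among all tested genes 8.28% were lower and 7.95% higher by that limit, the shares for this and the next list. Abhd17c, a protein depalmitoylase, measured 17.3 and 18.1 against 11.8 and 13.3 FPKM (log2 fold change -0.47, SE 0.14, adjusted limma p 0.243). Lypla2, an acyl-protein thioesterase, measured 38.6 and 35.4 against 30.2 and 26.1 FPKM (-0.39, SE 0.14, adjusted limma p 0.286). Without either Sox4f/f mouse 0 of these genes were lower, and without Sox4-MKO mouse 2 the number was 1. Of 6 binding partners of acyl-CoA and lipid, Acbd4, an acyl-CoA binding protein of the peroxisome, was higher at 73.5 and 85.3 against 47.3 and 58.8 FPKM (0.58, SE 0.16, adjusted limma p 0.239), the median was 0.02, and without Sox4f/f mouse 1 or Sox4-MKO mouse 2 none had an unadjusted limma p under 0.05.

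The genes whose profile over the 4 libraries was most like that of Acot13 were Pm20d1, Fxr2, Uqcrq, Kmt2b and Fam122a, by the Euclidean distance of log2(FPKM + 1) centred on each gene's mean, with distances from 0.031 to 0.052. With only 4 libraries many genes can lie this close. Pm20d1, which makes N-acyl amino acids, measured 6.853 and 6.76 FPKM in the controls versus 5.222 and 4.008 FPKM in mice labelled Sox4-MKO. Uqcrq, a subunit of respiratory complex III, measured 784.6 and 781.2 against 625.2 and 512.0 FPKM. The nearest members of the family were Acot8, at a distance of 0.37, and Acot9, at 0.394.

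The promoters of 9 of the 10 members, all but Acot13, were searched from 250 bases before to 50 bases after each start (RefSeq, GRCm38.p6) on both strands. For Acot7 the only window, chr4:152185358-152185657, lay inside the gene as placed above, so the start of that gene extent was not searched. The nuclear receptor hexamer AGGTCA was found in the promoters of Acot3, Acot4 and Acot5, and in 16.3% of all promoters. The SOX core AACAAT was found in that of Acot9, and in 10.7% of all promoters. The SOX4 sites named by the study, AACAAGT at Ebf2 and AACAAAG at Ucp1 and Prdm16, do not hold AACAAT. They were not searched for. The PPAR site, a direct repeat of AGGTCA with 1 base between (0.0396% of all promoters), the ERR element TCAAGGTCA (0.423%), which also holds AGGTCA, and the EBF palindrome of TCCC and GGGA with 2 bases between (0.904%) were not found in these windows.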

How the data were processed

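RNA sequencing was performed on BAT of 4 mice. The authors deposited 1 FPKM value per gene and library, and the submitters' processing notes name Cufflinks 2.1.1, Cuffdiff and mm10. The aligner and the annotation are not given in the sources used here. The labels describe a column kit and a stranded mRNA library, the methods TRIzol and a TruSeq library. The values carry no counts. From the steps of low FPKM values in genes with 1 transcript of at least 1500 bases, depth was estimated at 12100000 to 16300000 fragments per library, and between 18593 and 19389 rows were above 0. Estimated fragments are approximate and cover counting error only.

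Following the limit in the study's methods, genes whose mean FPKM exceeded 1 in either genotype were tested with limma 3.58.1 (R 4.3.3) on log2(FPKM + 1), fitting genotype alone with a trended prior, two-sided p-values and Benjamini-Hochberg adjustment over all 12877 genes. A fold change on this scale understates that of low genes. The code was tested on simulated data. The members and the gene lists were chosen with earlier results of these data known, and list counts and medians are therefore given without a test. Named from each list were the 3 genes of largest absolute log2 fold change among those with an unadjusted p under 0.05 and no overlap, besides all members, all other acyl-CoA thioesterases, the 5 genes nearest to the most abundant member, Sox4 and Ucp1. Alternatives were other pseudocounts, limits and scalings, no moderation, a replicate block, and leaving out each library. Sequences came from GENCODE M21 and RefSeq on GRCm38 and were aligned with Biopython 1.88. The coding bases counted exclude untranslated parts. Figures were drawn with matplotlib 3.10.9.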

Additional observations from a re-analysis of the deposited data

How the results depend on the processing

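All 8 tested members kept a log2 fold change below 0 under every alternative that tested them, and none passed an adjusted p of 0.05. FPKM over all rows summed to 578011 and 544564 in the controls and to 495145 and 472062 in mice labelled Sox4-MKO. No alternative scaled the libraries to this total. Scaling to it would raise every member in mice labelled Sox4-MKO relative to the controls. The lower levels therefore depend on the scale. Small differences need not keep their direction, such as those of Acot7 and Acot9, whose ratios of means were 0.926 and 0.881. The members were not tested on that scale. Acot13 ranged from -0.66 to -0.36. The number of members lower at an unadjusted p under 0.05, 1 in the result given, was 2 without moderation (Acot8 and Acot9, with Acot13 at 0.0781), between 1 and 2 when a library was left out (Acot11 without Sox4f/f mouse 1, Acot4 at 0.0488 without Sox4f/f mouse 2, Acot13 without Sox4-MKO mouse 1, Acot13 and Acot2 without Sox4-MKO mouse 2), and 0 after rescaling to the general adipocyte markers. The number lower without overlap, 7, was 6 (Acot1 then overlapped) at a common median or at a common sum without mitochondrially encoded genes and Ucp1, 4 after the adipocyte rescaling, and 7 to 8 with a library left out. Of all genes, 29.6% were lower without overlap in the result given, 20.0% after the adipocyte rescaling and 39.4% to 47.4% with a library left out. The members' median of -0.37 ranged from -0.36 to -0.24 with a library left out. Sox4 ranged from -0.32 to 0.71, at -0.07 without Sox4f/f mouse 2. The Acot1 to Acot2 log2 ratio ranged from -0.61 to 0.14. With a library left out, Them4 ranged from -0.08 (without Sox4f/f mouse 1) to 0.44, and Acot6 from -0.08 (without Sox4-MKO mouse 1) to 0.53. The cause of these changes was not tested. Over all genes, 1066 were lower and 1024 higher (51.0% of calls lower). This became 935 and 553 without moderation (62.8%), 745 and 1322 at the common sum (36.0%), 815 and 1443 without Sox4-MKO mouse 2 (36.1%), 282 and 828 after the adipocyte rescaling (25.4%, with 19 adjusted calls), 380 and 433 without Sox4f/f mouse 1 (1 adjusted call), 489 and 574 without Sox4f/f mouse 2 (4 adjusted calls), and 986 and 684 with a limit of 5 FPKM (59.0%).

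Mouse numbers were shared between the genotypes, but the mouse 1 minus mouse 2 differences had a correlation of -0.012 over 12877 genes and nothing in the labels pairs the mice. With the mouse number as a replicate block, 1 member was lower (Acot13, -0.51), the members' median was -0.37, Sox4 was at 0.20, and 938 genes were lower and 970 higher. The block changed no call of a member, while the acyl-CoA synthetases lower went from 4 to 2 and the peroxisomal genes lower from 2 to 0. Acot3 and Acot5, at no more than 6 estimated fragments in a library, allow no comparison at this depth.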
